A study of Mus musculus with 3 samples.

Results

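The 10 genes Hamp, Hamp2, Tfr2, Hfe, Bmp6, Tfrc, Trf, Slc40a1, Fth1 and Ftl1, which encode the iron hormone hepcidin, its regulators and the proteins that carry, take up, store and export iron, were followed across cell classes of the mouse liver. They were the matrix rows with these symbols, 10 of 55357 features, and all 10 were found. They had been picked with their levels by cell class and library in view, so these levels are given as a description and no test was run on them.

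The study used single-cell RNA sequencing to map the expression of the neurotrophic factor Bdnf over the cells of the liver. It comprised 3 droplet libraries, 1 per condition, each from the pooled cells of 2 male wild-type C57BL/6 mice that were 8 weeks old at the start. CON mice were untreated. HFD mice, a model of steatohepatitis, were kept for 4 months on a high-fat diet, in which fat supplied 60% of the calories. CCl4 mice, a model of liver fibrosis, ate chow for 3 months and were then given 0.1 mL of a 10% solution of carbon tetrachloride into the peritoneum at each of 2 injections a week over 4 weeks. Hepatocytes and non-parenchymal cells were freed by collagenase perfusion and recombined in equal numbers, so class sizes were set in part by the mixing. With 1 library per condition and mice that cannot be told apart within it, no difference between conditions has a replicate check. Square brackets hold exact 95% intervals, which cover counting error only, and both ratios to CON share the same control library.

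Hepcidin is a small peptide hormone that hepatocytes secrete. It binds ferroportin, the only known cellular iron exporter and the product of Slc40a1, and causes it to be degraded, which keeps iron inside macrophages and gut cells. Hepatocytes raise Hamp when iron is plentiful, through BMP6 from sinusoidal endothelial cells and the membrane proteins HFE, transferrin receptor 2 and hemojuvelin, and during inflammation, through interleukin 6 and STAT3, while erythroid demand lowers it. Mice carry a second gene, Hamp2, beside Hamp, and its product is not known to regulate iron as hepcidin does.

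Levels are given as CPM, the unique molecular identifiers (UMIs) of a gene per 1000000 UMIs of a class in a library. The libraries held 11245 to 12984 barcodes and 34061186 to 49613255 UMIs, with medians of 2939 UMIs per barcode in CON, 2336 in HFD and 2173 in CCl4, and 137 barcodes occurred in more than 1 library. Clusters were named from markers that include none of the iron genes. Hepatocyte-like cells numbered 4961 in CON, 6368 in HFD and 7036 in CCl4, Kupffer cell-like cells, the resident macrophages of the liver, 72, 75 and 26, endothelial cell-like cells 156, 331 and 168, erythroid cell-like cells 209, 277 and 252, and T cell-like cells 1745, 2131 and 1996. All 13 hepatocyte markers were higher in hepatocyte-like cells than in the other cells of the same library, but their summed level was 3.62 times that of the other cells in CON, 1.58 times in HFD and 1.33 times in CCl4. The same ratio was at least 182 for Kupffer cell-like cells, with Marco at 0 in CCl4, at least 92.9 for endothelial cell-like cells and at least 62.8 for erythroid cell-like cells, in which Klf1 was at 0 in CON and CCl4 and Rhag in CON. Hepatocyte RNA was thus also present in droplets of other classes, and T cell-like cells, which should lack it, serve as its background below. The hepatocyte-like cells comprised clusters rich in mitochondrial RNA, with medians of 4.40% to 6.16% of UMIs and 1537, 1169 and 3001 cells in CON, HFD and CCl4, and clusters poor in it, with medians of 0.334% to 0.625% and 3424, 5199 and 4035 cells. Median depth in the rich clusters was 8300, 3646 and 3326 UMIs, and since the iron genes differed between the rich and the poor clusters, both are given. The poor clusters were named hepatocyte-like from their markers, all 13 of which were higher than in the T cell-like cells of the same library, but by a summed 2.88 times in CON, 1.41 in HFD and 1.35 in CCl4, and Alb, the albumin gene, was at 7126 CPM in the poor CON cluster against 27000 in the rich clusters of CON. In the rich clusters 13 of the 13 markers were higher than in T cell-like cells in CON, 11 in HFD and 9 in CCl4. Their summed levels were 3.72, 1.52 and 1.27 times those of T cell-like cells. Ttr and Rbp4 were not higher there in HFD or CCl4, and Apoa1 and Apoa2 were not in CCl4. Whether the droplets of the poor CON cluster were intact hepatocytes was not tested. With 3424 of 4961 cells, that cluster weighs on every CON value of the pooled class.

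The promoters of the hepcidin genes are shown because the gene pair had different orders over the libraries. The windows are the 150 bases before the start of each gene on the minus strand of chromosome 7, from RefSeq in the build GRCm38.p6, at chr7:30944030-30944179 for Hamp and chr7:30924182-30924331 for Hamp2. Capitals mark the hexamer GGCGCC, the core of the BMP response element, with its counterpart in Hamp2, and TTCNNNGAA, the form of site that STAT3 binds.
Hamp: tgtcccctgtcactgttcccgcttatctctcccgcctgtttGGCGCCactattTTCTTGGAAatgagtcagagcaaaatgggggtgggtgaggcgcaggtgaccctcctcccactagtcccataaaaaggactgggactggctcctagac
Hamp2: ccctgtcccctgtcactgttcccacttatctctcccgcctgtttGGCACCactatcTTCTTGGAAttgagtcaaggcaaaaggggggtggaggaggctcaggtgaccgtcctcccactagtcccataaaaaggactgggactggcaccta
GGCGCC stood 109 to 104 bases before the start of Hamp, and the Hamp2 window carried the substitution G4A there, counted from 1 at the 5′ end of the hexamer, so the motif was not in it. TTCTTGGAA stood in both windows, 97 to 89 bases before the start of Hamp and 94 to 86 bases before that of Hamp2. Over the 250 bases before the start, 227 of 247 aligned bases, 91.9%, were identical. Of 32841 promoters of the same length, searched on both strands, 9.59% held GGCGCC and 7.02% held TTCNNNGAA. The motifs are letters in a window and show no binding. Of the 10 genes, 8 were in the RefSeq promoter table.

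Hamp, the gene of the active hormone, was high in the hepatocyte-like cells of every library, at 7567 CPM in CON, 4650 in HFD and 6902 in CCl4. The HFD level was 0.615 times that of CON [0.610-0.620] and the CCl4 level 0.912 times [0.906-0.918]. This order was not shared by the kinds of hepatocyte cluster. In the mitochondria-rich clusters Hamp stood at 3165 in CON, 2648 in HFD and 5156 in CCl4, which is 0.837 times CON [0.820-0.854] in HFD and 1.63 times [1.61-1.65] in CCl4. In the mitochondria-poor clusters it stood at 11906, 5388 and 9195, so that CON was highest there. The HFD level was thus below CON in both kinds of cluster and the CCl4 level was above CON in the rich clusters and below it in the poor ones. Forms of the naming rule that left the mitochondria-poor CON cluster and an HFD cluster unnamed turned the directions, to 1.59 times CON in HFD and 2.18 times in CCl4. Counted per cell, the ratios were 0.298 and 0.478.

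Hamp was also counted outside hepatocytes. T cell-like cells held 2198 CPM in CON, 3022 in HFD and 5258 in CCl4, and a Hamp UMI was found in 91.2%, 99.8% and 100% of them, against 99.5%, 99.7% and 99.4% of hepatocyte-like cells at median depths of 2379, 2211 and 2019 UMIs against 3804, 2292 and 2287. Hepatocyte-like cells therefore stood 3.44 times above this background in CON, 1.54 times in HFD and 1.31 times in CCl4. Within the mitochondria-rich clusters the margin was 1.44, 0.876 and 0.981 times, so that Hamp in the HFD and CCl4 rich clusters was not above T cell-like cells. Among the hepatocyte markers, Ttr and Rbp4 were not above them there either. In the poor clusters the Hamp margin was 5.42, 1.78 and 1.75 times. After the T cell level was taken off, the hepatocyte ratios to CON were 0.303 in HFD and 0.306 in CCl4.

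Kupffer cell-like cells held 1596, 2957 and 3393 Hamp CPM in CON, HFD and CCl4, endothelial cell-like cells 1298, 2421 and 3946, and erythroid cell-like cells 7615, 5121 and 6756. As a gauge, 10 other hepatocyte genes in Kupffer cell-like cells had a median of 0.199 times their hepatocyte level in CON, with a range of 0.154 to 0.278, and Hamp had 0.211. In HFD the median was 0.620, with a range of 0.586 to 0.660, and Hamp had 0.636, and in CCl4 the median was 0.626 and Hamp 0.491, inside the range of 0.457 to 0.791. Kupffer Hamp thus stayed within the spread of free RNA in all 3 libraries. Erythroid Hamp in CON and HFD was outside the range of the 10 genes: it was 1.01 and 1.10 times the hepatocyte level, where the highest of them reached 0.85 and 1.03. Other genes were also near their hepatocyte level in erythroid cell-like cells of CON. Saa1 was at 15346 CPM against 17502, Saa2 at 20596 against 21921 and Mt1 at 15280 against 15363. In HFD they were at 641 against 663, 340 against 351 and 168.6 against 167.5. Whether erythroid Hamp exceeded free RNA was not tested. Endothelial Hamp in CCl4, at 0.572, was below the lowest of the 10, 0.655.

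Hamp2 was nearly absent from CON and abundant in CCl4. Hepatocyte-like cells held 79 Hamp2 UMIs in CON, 2034 in HFD and 20322 in CCl4, or 2.87, 118.6 and 992 CPM. The levels were 41.4 times CON in HFD [33.0-52.5] and 346 times in CCl4 [277-437], and CCl4 was 8.36 times HFD. Both kinds of hepatocyte cluster had this order, with 1.61, 72.3 and 787 CPM in the mitochondria-rich clusters and 4.11, 136 and 1262 in the poor ones. A Hamp2 UMI was seen in 1.23% of hepatocyte-like cells in CON, 23.1% in HFD and 81.8% in CCl4. Thinned to 1000 UMIs per cell, with no cell left out, these shares were 0.337%, 10.97% and 56.6%.

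The other classes had the same order as the hepatocytes. T cell-like cells held 7, 407 and 3361 Hamp2 UMIs in CON, HFD and CCl4, which is 1.41, 79.9 and 769 CPM, and 0.401%, 17.0% and 78.6% of them had a UMI. These levels were 0.674 times the hepatocyte level in HFD and 0.775 times in CCl4, both inside the range of the 10 free RNA genes, 0.608 to 0.759 and 0.597 to 0.927. In CON the level came to 0.491 times that of hepatocytes, where the highest of the 10 genes was at 0.417. It rests on 7 UMIs, too few to place it inside or outside their range. Kupffer cell-like cells had 0 Hamp2 UMIs in CON, which allows up to 8.27 CPM, and 70.0 and 647 CPM in HFD and CCl4, at least 8.47-fold and 78.2-fold higher when the floor of 3 UMIs is taken for CON. Endothelial cell-like cells were at 0, 67.4 and 589 CPM and erythroid cell-like cells at 0, 140 and 1003. Cholangiocyte-like cells of CON held 20 Hamp2 UMIs, all in 4 cells.

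Per 100 Hamp UMIs, hepatocyte-like cells held 0.0379 Hamp2 UMIs in CON, 2.55 in HFD and 14.4 in CCl4. The ratio hardly moved between the mitochondria-rich clusters, at 0.0509, 2.73 and 15.3, and the poor ones, at 0.0345, 2.52 and 13.7, although Hamp itself was far apart between them. T cell-like cells gave 0.0640, 2.64 and 14.6. The medians over the 17 groups outside hepatocyte-like cells, which include the unnamed clusters, were 0, 2.60 and 14.8. Over these groups the ratio ran from 0 to 1.89 in CON, from 1.80 to 6.67 in HFD and from 4.22 to 19.1 in CCl4. The 6.67 rests on 3 Hamp2 and 45 Hamp UMIs in smooth muscle-like cells. The balance of the gene pair thus differed more between libraries than between most classes. Hamp and Hamp2 are close copies, and how reads that fit both were assigned was not tested. Whether the HFD and CCl4 levels of Hamp2 came from 1 or both mice of a library cannot be told apart.

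**Figure D1:**
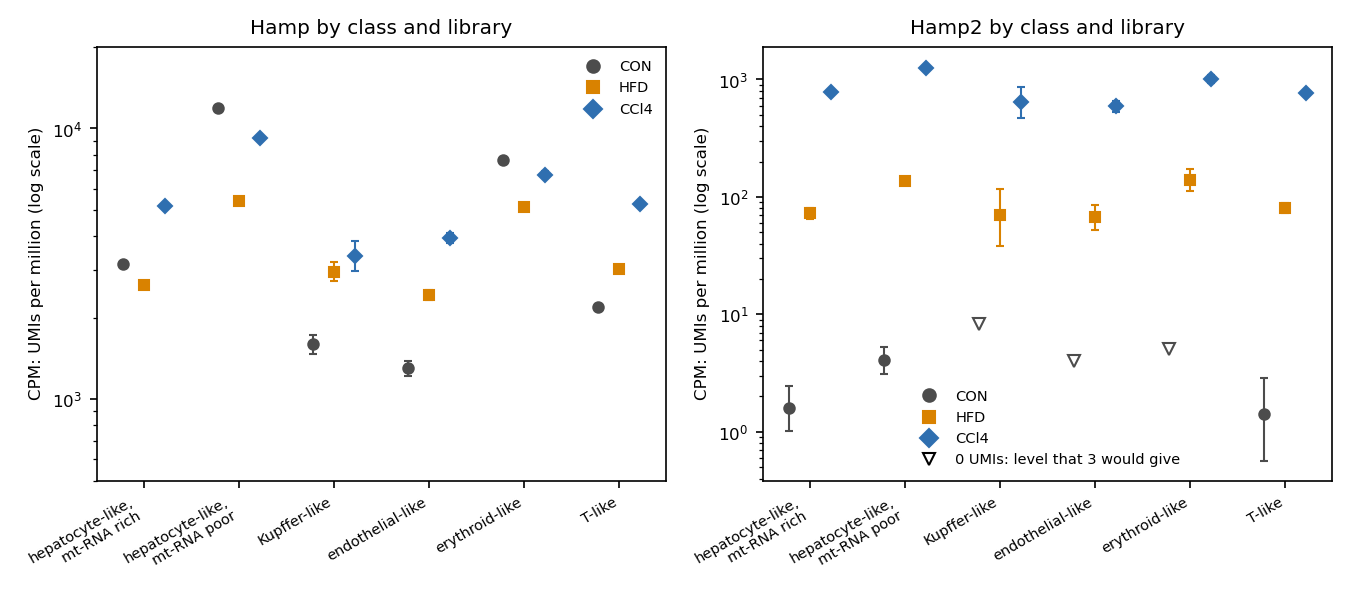
Level of Hamp (left) and Hamp2 (right) in CPM, on log axes, in 6 cell classes of the CON, HFD and CCl4 libraries, where mt-RNA stands for mitochondrial RNA, bars are exact 95% counting intervals, and open triangles mark 0 UMIs at the level 3 would give. Hamp in mitochondria-poor hepatocyte-like cells ran 11906, 5388 and 9195 over the libraries, while Hamp2 was lowest in CON and highest in CCl4 in each class, with 2.87 and 992 over all hepatocyte-like cells.

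Of the genes that sense iron for hepcidin, Tfr2, a transferrin receptor that hepatocytes use as a gauge of iron-loaded transferrin, differed little between the libraries in the pooled class but in opposite directions within it. Hepatocyte-like cells held 154 CPM in CON, 139 in HFD and 149 in CCl4, a ratio to CON of 0.904 [0.859-0.951] and 0.967 [0.923-1.01]. The mitochondria-rich clusters held more, 264, 233 and 198, with ratios of 0.881 [0.823-0.944] and 0.751 [0.712-0.791]. In the poor clusters Tfr2 was at 45.9, 105 and 84.6, so HFD was 2.29 times CON [2.08-2.52] and CCl4 1.84 times [1.66-2.05] there, levels close to the 36.6, 81.3 and 65.0 of T cell-like cells. Mitochondria-rich clusters stood 7.22, 2.87 and 3.05 times above background. Over the alternatives, these clusters included, the HFD ratio ran from 0.439 to 2.29, on the same side of the 2-fold threshold in 9 of 14.

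Hfe, the gene of the haemochromatosis protein, was highest in Kupffer cell-like cells, at 93.7 CPM in CON [64.9-131], 80.0 in HFD [45.8-130] and 86.2 in CCl4 [31.6-188], from 34, 16 and 6 UMIs. Endothelial cell-like cells held 48.6, 42.9 and 43.4, near the 42.0, 40.6 and 38.7 of dendritic cell-like and the 34.0, 42.5 and 21.4 of monocyte/macrophage-like cells. Hepatocyte-like cells held 14.9, 17.8 and 21.3 and T cell-like cells 3.82, 8.83 and 11.2. The mitochondria-rich hepatocyte clusters held 20.4, 22.7 and 27.1 and the poor ones 9.44, 16.0 and 13.7. Kupffer Hfe was 24.5, 9.06 and 7.70 times the T cell level and endothelial Hfe 12.7, 4.86 and 3.87 times. Neither non-parenchymal class differed between libraries beyond counting error, with Kupffer ratios to CON of 0.854 [0.440-1.59] and 0.920 [0.316-2.22] and endothelial ratios of 0.883 [0.552-1.42] and 0.893 [0.510-1.54]. The Kupffer interval overlapped the endothelial one in each library. Overlap of separate intervals does not settle an order, and no ratio between these classes was taken.

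Bmp6, the ligand that endothelial cells send to hepatocytes when iron is high, was found mostly in endothelial cell-like and cholangiocyte-like cells. Endothelial cell-like cells had 87 UMIs in CON, 23 in HFD and 9 in CCl4, or 117 CPM [94.0-145], 23.5 [14.9-35.2] and 16.3 [7.44-30.9]. The intervals of HFD and CCl4 lay below that of CON, with ratios of 0.200 [0.121-0.320] and 0.139 [0.0613-0.275]. A Bmp6 UMI was seen in 30.8% of endothelial cell-like cells in CON, 6.65% in HFD and 4.17% in CCl4, and 10.2%, 2.38% and 2.11% after thinning to 1000 UMIs. Cholangiocyte-like cells had 35, 12 and 8 UMIs, with ratios of 0.436 and 0.262. Hepatocyte-like cells had 5, 6 and 3 UMIs in all, T cell-like cells 0, 5 and 2, and Kupffer cell-like cells 0 in every library. Under all 12 alternatives run, endothelial Bmp6 was at most 0.271 times CON in HFD and 0.287 times in CCl4. The 12 endothelial markers moved alongside, with a summed 10574 CPM in CON, 6685 in HFD and 2561 in CCl4, and the free hepatocyte RNA in these cells went from 0.168 to 0.586 and 0.829 times the hepatocyte level. Their part in the Bmp6 ratios was not tested.

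Tfrc, the transferrin receptor through which most cells take up iron, was 4.01 times higher in CCl4 than in CON in hepatocyte-like cells [3.58-4.50]. The levels were 14.4 CPM in CON, 17.5 in HFD and 57.8 in CCl4, from 397, 300 and 1184 UMIs, and the HFD ratio was 1.21 [1.04-1.41]. The mitochondria-rich clusters held 23.4, 31.4 and 75.7, with ratios of 1.34 [1.09-1.64] and 3.23 [2.84-3.69]. The poor ones held 5.55, 12.4 and 34.3, with ratios of 2.23 [1.685-2.968] and 6.18 [4.80-8.05]. T cell-like cells, which express Tfrc themselves, held 23.5, 25.9 and 36.6, so that hepatocyte Tfrc was below them in CON and HFD, at 0.613 and 0.675 times, and above them only in CCl4, at 1.58 times. The hepatocyte ratio of CCl4 to CON stayed between 2.10 and 6.18 over the 13 alternatives that gave a value.

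Among the other classes Tfrc was highest in plasmacytoid dendritic cell-like cells in CON and CCl4, with 167, 53.0 and 103 CPM in CON, HFD and CCl4 from 136, 14 and 50 UMIs. Myeloid progenitor-like cells held 122 in CON, 76.0 in HFD and 18.7 in CCl4, from 383, 21 and 3 UMIs. Endothelial cell-like cells had 6.75, 21.4 and 54.2 CPM from 5, 21 and 30 UMIs. Kupffer cell-like cells had 4, 6 and 1 UMIs, too few for an order. Erythroid cell-like cells held only 11.9, 22.4 and 61.6, close to hepatocyte-like cells of the same library, although erythroblasts are known for high Tfrc. These cells were recognised mainly by globin genes.

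Trf, the gene of transferrin, the iron carrier of plasma that hepatocytes secrete, was at 6177 CPM in the hepatocyte-like cells of CON, 4417 in HFD and 5931 in CCl4. The ratios were 0.715 [0.709-0.721] and 0.960 [0.953-0.967], and in the mitochondria-rich clusters, at 8262, 5804 and 7353, they were 0.703 [0.693-0.712] and 0.890 [0.882-0.898]. The mitochondria-poor clusters were closer together, at 4122, 3906 and 4062, with ratios of 0.947 [0.936-0.959] and 0.985 [0.9724-0.9985]. T cell-like cells had the other order, with 1486 in CON, 2988 in HFD and 3518 in CCl4, so the margin of hepatocytes over them was 4.16, 1.48 and 1.69 times. In Kupffer cell-like cells Trf was at 1232, 2957 and 3206, 0.199, 0.669 and 0.541 times the hepatocyte level. The free RNA genes ranged from 0.154 to 0.278, 0.586 to 0.660 and 0.457 to 0.791, so the value lay within the range in CON and CCl4 and just above it in HFD.

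Slc40a1, the gene of ferroportin, was highest in the Kupffer cell-like cells of CON, the macrophages that return iron from old red cells to plasma. The level was 1091 CPM [987-1204] in CON, 370 [291-465] in HFD and 302 [187-461] in CCl4, from 396, 74 and 21 UMIs. The ratios to CON were 0.339 [0.261-0.436] in HFD and 0.277 [0.169-0.429] in CCl4. A UMI was seen in 56.9% of 72 cells in CON, 40.0% of 75 in HFD and 38.5% of 26 in CCl4, and 43.2%, 24.3% and 20.3% after thinning to 1000 UMIs, beside 2.46%, 6.24% and 10.2% of T cell-like cells unthinned. Single cells held up to 40 UMIs in CON, 8 in HFD and 7 in CCl4. The 10 Kupffer markers of the class also differed, with a summed 9647 CPM in CON, 7570 in HFD and 5031 in CCl4, while the free hepatocyte RNA in it went from 0.199 to 0.620 and 0.626 times the hepatocyte level, and their part in the Slc40a1 ratios was not tested. Relative to T cell-like cells, Kupffer Slc40a1 was 123 times higher in CON, 13.9 times in HFD and 6.03 times in CCl4.

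The size of this difference turned on which droplets entered the Kupffer class. When the iron genes were kept among the genes used for clustering, the control class grew from 72 to 247 cells but from 396 to only 401 Slc40a1 UMIs, so its level became 373 CPM and the ratios 0.909 and 1.01. The level of Clec4f, a Kupffer cell marker, went from 207 to 73.4 CPM in that class. When cells were instead chosen individually by their marker UMIs, 83, 98 and 37 cells gave 981, 294 and 275 Slc40a1 CPM and ratios of 0.299 and 0.280.

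Endothelial cell-like cells held 144, 173 and 161 Slc40a1 CPM in CON, HFD and CCl4, with ratios of 1.20 [0.933-1.54] and 1.11 [0.832-1.49], and did not differ between libraries beyond counting error. Hepatocyte-like cells held 26.1, 45.8 and 105, so the CCl4 level was 4.00 times that of CON [3.68-4.36] and the HFD level 1.75 times [1.58-1.94]. The rich clusters showed the same, with 38.6, 71.7 and 133 CPM and ratios of 3.46 [3.13-3.82] and 1.86 [1.61-2.14]. The poor clusters held 13.9, 36.3 and 67.1, with ratios of 4.82 [4.09-5.70] in CCl4 and 2.61 [2.201-3.105] in HFD. T cell-like cells moved alongside, at 8.85, 26.7 and 50.1, with ratios of 5.66 [4.08-8.02] in CCl4 and 3.02 [2.13-4.34] in HFD. Hepatocyte Slc40a1 was 2.96, 1.72 and 2.09 times the T cell level.

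**Figure D2:**
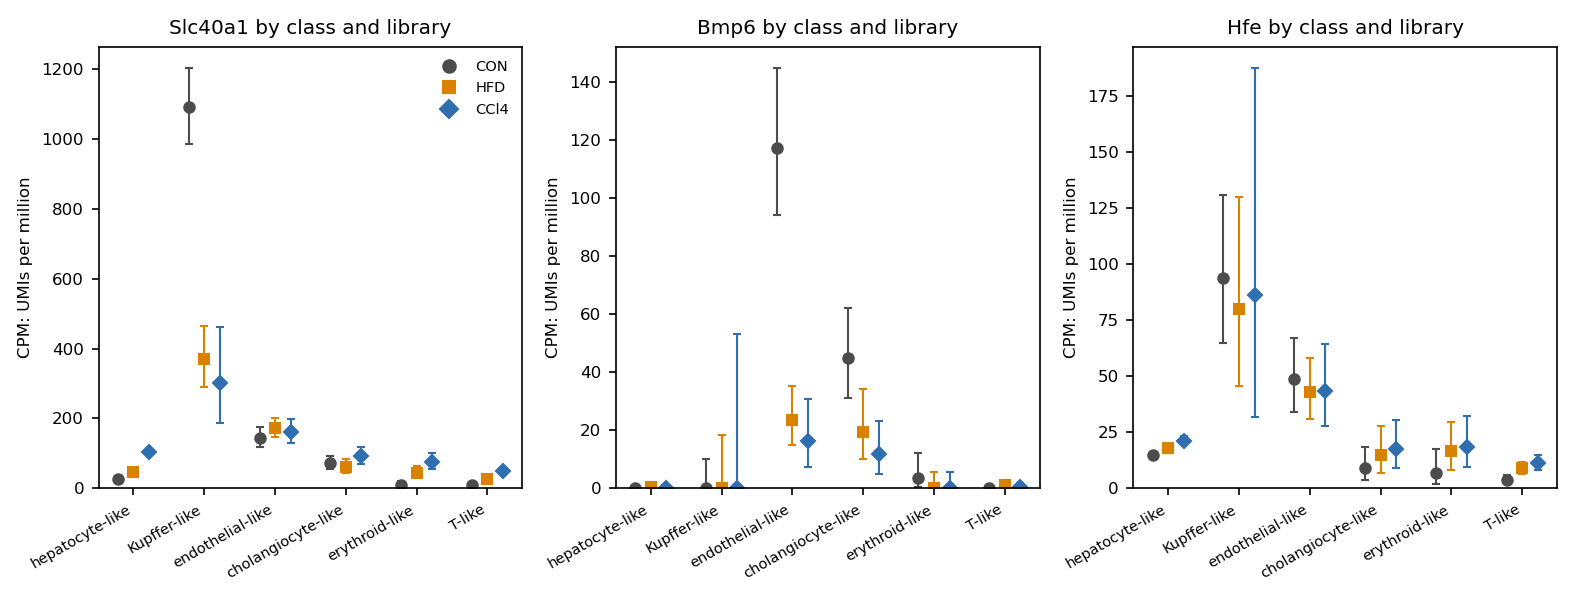
Level of Slc40a1, Bmp6 and Hfe in CPM, on linear axes, in 6 cell classes of the CON, HFD and CCl4 libraries, with bars for exact 95% counting intervals. Slc40a1 in Kupffer cell-like cells was at 1091 in CON, 370 in HFD and 302 in CCl4 and Bmp6 in endothelial cell-like cells at 117, 23.5 and 16.3, while the Hfe intervals of the libraries overlapped within both classes.

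The genes of ferritin, the cage that stores iron inside cells, were abundant in every class. Fth1, the heavy chain, was at 7645 CPM in the hepatocyte-like cells of CON, 9723 in HFD and 7749 in CCl4, ratios of 1.27 [1.26-1.28] and 1.01 [1.01-1.02]. In Kupffer cell-like cells it was at 7863, 9686 and 8122, which is 1.03, 0.996 and 1.05 times the pooled hepatocyte level. Plasmacytoid dendritic cell-like cells held 9422, 10085 and 11082, or 1.23, 1.04 and 1.43 times that level. No intervals were taken for these ratios, and the Kupffer ones were close to 1. T cell-like cells held 3331 in CON, 6449 in HFD and 7358 in CCl4. The mitochondria-poor hepatocyte clusters held 10000, 11063 and 10566 and the rich ones 5254, 6088 and 5604, with the libraries close together within each kind.

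Ftl1, the light chain, was at 2975 CPM in the hepatocyte-like cells of CON, 4513 in HFD and 2503 in CCl4, ratios of 1.52 [1.502-1.532] and 0.841 [0.832-0.851]. The mitochondria-rich clusters held 1330, 1708 and 1643, so the CCl4 level was above CON there, at 1.24 times [1.21-1.26]. The poor clusters held 4597, 5548 and 3632, with a CCl4 ratio of 0.790 [0.780-0.801]. The HFD ratio was 1.285 [1.251-1.319] in the rich and 1.207 [1.194-1.220] in the poor clusters, both below the pooled 1.52. Poor clusters made up 5199 of 6368 cells in HFD and 3424 of 4961 in CON. The part of this mix in the pooled ratio was not tested. T cell-like cells held 1327, 2791 and 2458, in CCl4 0.982 times the hepatocyte level. The HFD ratio was 3.69 under both other naming forms of the classes and 0.736 per cell, and the CCl4 ratio was 1.88 under those naming forms. With the T cell level taken off the CCl4 ratio was 0.0270 for Ftl1 and 0.0906 for Fth1. That level was not a clean background for ferritin. Relative to hepatocytes, T cell-like Ftl1 and Fth1 were at 0.446 and 0.436 in CON, where the highest free RNA gene reached 0.417. In CCl4 they were at 0.982 and 0.950, above the highest, 0.927, while in HFD both lay inside the range. Hepatocyte ferritin in CCl4 is therefore not read from these subtracted ratios. Kupffer cell-like cells held 4947, 3967 and 3364, with ratios of 0.802 [0.737-0.872] and 0.680 [0.591-0.780]. In the main setting Ftl1 was thus higher in HFD than in CON in hepatocyte-like cells and lower in Kupffer cell-like cells. The T cell-like ratio was 2.10 in HFD. Over 12 alternatives the Kupffer HFD ratio ran from 0.325 to 1.06, with the same direction in 10. Free hepatocyte RNA in the Kupffer class went from 0.199 times the hepatocyte level in CON to 0.620 in HFD. Its part in these ratios was not tested. Processed copies of both genes exist in the mouse genome, but the most counted of them, Ftl1-ps1 and Fth1-ps, had 815 and 161 UMIs in CON beside 119038 for Ftl1 and 309781 for Fth1.

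**Figure D3:**
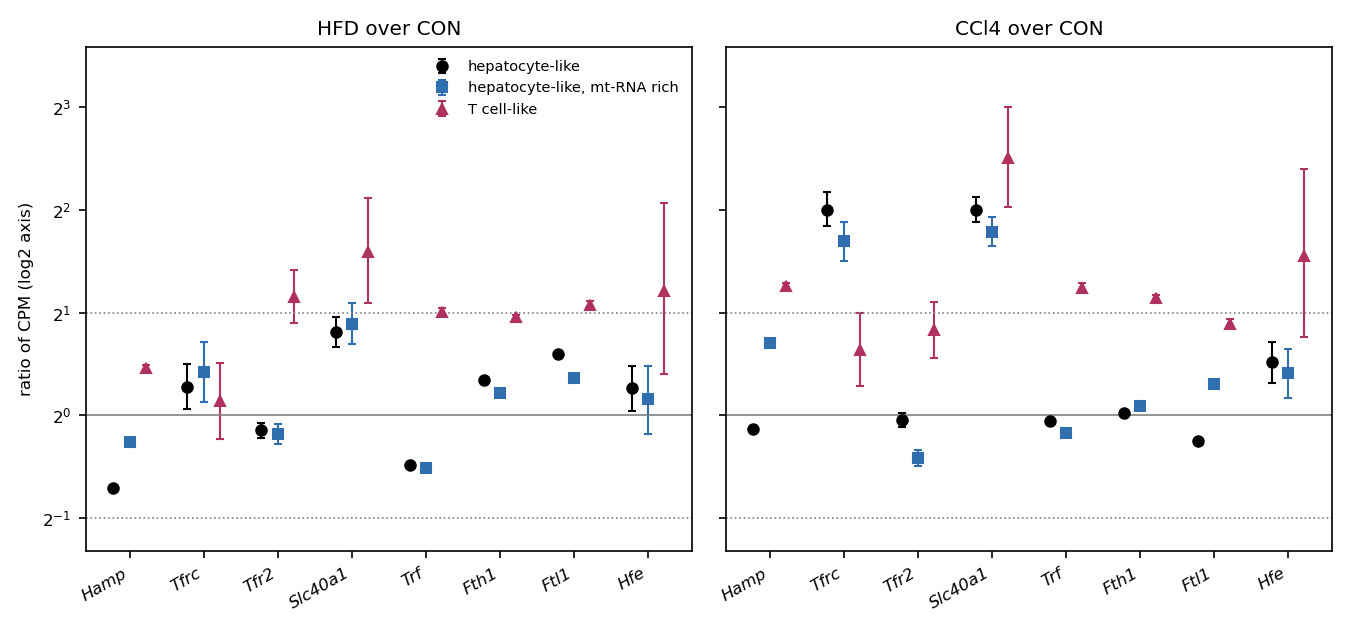
Ratio of the level in HFD (left) or CCl4 (right) to CON on a log2 axis for 8 iron genes in all hepatocyte-like cells, the clusters rich in mitochondrial RNA (mt-RNA) and T cell-like cells, with bars for exact 95% counting intervals, a solid line at a ratio of 1 and dotted lines at 2-fold higher and lower. Tfrc and Slc40a1 stood above the upper line in CCl4 hepatocyte-like cells, at 4.01 and 4.00, and Trf was below 1 in hepatocyte-like cells while its T cell-like ratio was 2.01 in HFD and 2.37 in CCl4.

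The 10 genes were also read together in hepatocyte-like cells, at a 2-fold threshold among genes with at least 50 UMIs in the pair of libraries. In HFD against CON, 9 of the 10 genes had enough UMIs, of which Hamp2 alone was at least 2-fold higher, where 7.10% of all genes were higher, and 0 were at least 2-fold lower, where 7.31% of all genes were. In CCl4, 3 of 9 genes, Hamp2, Tfrc and Slc40a1, were higher, against 9.32% of all genes, and 0 were lower, against 7.74%. The mitochondria-rich clusters gave the same genes, with 1 higher and 0 lower in HFD beside 7.53% and 6.00% of all genes, and 3 higher and 0 lower in CCl4 beside 8.20% and 7.45%. The mitochondria-poor clusters did not in HFD, where 4 of 9, Hamp2, Tfrc, Tfr2 and Slc40a1, were higher beside 12.0% of all genes and Hamp was lower beside 4.84%, whereas in CCl4 the 3 higher genes were those of the pooled class, beside 10.6%, and 0 were lower, beside 7.92%. The median log2 ratio of the 9 genes was 0.28 in HFD and 0.02 in CCl4 in hepatocyte-like cells, beside 0.02 and 0.03 over all genes. In Kupffer cell-like cells, 6 genes had enough UMIs in HFD, of which Trf was higher (15.3% of all genes) and Slc40a1 lower (21.0%), and 5 in CCl4, of which Hamp and Trf were higher (11.6%) and Slc40a1 lower (26.4%). The genes were chosen on these values, so nothing is read from the counts.

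The wider set of iron genes was taken in 13 lists by role, with 79 genes, all in the files. In hepatocyte-like cells of HFD against CON, 73 had enough UMIs, of which 6 were at least 2-fold higher and 15 at least 2-fold lower, beside the 7.10% and 7.31% of all genes, with a median log2 ratio of 0.01. In CCl4, 72 had enough, of which 7 were higher and 12 lower, beside 9.32% and 7.74%, with a median of -0.05. Within the mitochondria-rich clusters the counts were 5 higher and 15 lower of 71 in HFD, beside 7.53% and 6.00% of all genes. In CCl4 they were 4 higher and 14 lower of 71, beside 8.20% and 7.45%. Within the mitochondria-poor clusters 12 were higher and 9 lower of 69 in HFD. All genes leaned the same way there, with 12.0% higher and 4.84% lower. In CCl4, 16 were higher and 12 lower of 68, beside 10.6% and 7.92% of all genes. The values by list below are those of all hepatocyte-like cells unless said otherwise.

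Among the genes of the BMP and transferrin route, 1 of 14 was higher and 1 lower in each comparison. Of all genes, 7.10% were higher and 7.31% lower in HFD, and 9.32% and 7.74% in CCl4. In the mitochondria-poor clusters 5 of 13 genes of the route were higher and 1 lower in HFD, beside 12.0% and 4.84% of all genes. In CCl4, 5 of 12 were higher there and 1 lower, beside 10.6% and 7.92%. Smad1 is a mediator of the BMP signal. Over all hepatocyte-like cells it was at 78.7 CPM in CON, 31.9 in HFD and 18.5 in CCl4, ratios of 0.405 and 0.235. Smad9 was 2.90 times higher in HFD and Hjv, the gene of hemojuvelin, the BMP co-receptor, 2.24 times higher in CCl4, with 13, 20.4 and 29.1 CPM in the libraries. Of the known targets of the route, 3 of 5 were higher in HFD, with Smad6 at 3.61 and Atoh8 at 3.49 times CON, both from at most 126 UMIs a library. Id1, a target named here after its values were seen, was the other, at 9.33 CPM in CON, 32.3 in HFD and 12.2 in CCl4. In the mitochondria-rich clusters only Atoh8, of 3 with enough UMIs, passed the threshold, and Id1 had a ratio of 1.69. In CCl4, 0 of 4 targets passed in either direction. In the mitochondria-poor clusters 2 of 3, Id1 and Atoh8, were higher in both comparisons, beside 12.0% of all genes in HFD and 10.6% in CCl4.

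Of the genes that sense inflammation, 3 of 5 were lower in HFD and 1 of 5 in CCl4, beside 7.31% and 7.74% of all genes. The mitochondria-rich clusters gave the same counts, beside 6.00% and 7.45%. In the mitochondria-poor clusters 1 of 5 was lower in HFD, beside 4.84% of all genes. In CCl4, 2 of 5 were lower there, beside 7.92%, and Il6ra was higher, beside 10.6%. Over all hepatocyte-like cells Stat3, the mediator of interleukin 6, was at 169 CPM in CON, 70.5 in HFD and 89.4 in CCl4. Socs3, its feedback inhibitor, was at 120, 51.0 and 66.0. Il6st, the shared receptor chain of the interleukin 6 family, had a ratio of 0.463 in CCl4. Fgl1, a liver protein that counters BMP ligands when erythropoiesis is stressed, was at 1354 CPM in CON, 385 in HFD and 178 in CCl4. Acute-phase genes outside the iron lists, named after their values were seen, were also far higher in CON: hepatocyte-like cells held 17502 Saa1 CPM in CON, 663 in HFD and 193 in CCl4. Mt1, a metallothionein, was at 15363, 168 and 421. Their part in the ratios of the iron genes was not tested.

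Of the uptake genes, 4 of 9 were lower in both comparisons and, in CCl4, Tfrc and Steap3, an endosomal ferrireductase, were higher, at 4.01 and 2.31 times. The shares of all genes were 7.31% lower in HFD, and 7.74% lower and 9.32% higher in CCl4. In the rich clusters Steap3 was at 1.85 times and did not pass. In the poor clusters 2 of 9 uptake genes were higher and 2 lower in HFD, beside 12.0% and 4.84% of all genes. In CCl4, 3 were higher there and 2 lower, beside 10.6% and 7.92%. Over all hepatocyte-like cells Steap4, a metalloreductase, was at 1162 CPM in CON, 51.1 in HFD and 122 in CCl4, ratios of 0.0440 and 0.105. Scara5, a ferritin receptor, had ratios of 0.138 and 0.263. Cp, the gene of ceruloplasmin, the plasma ferroxidase that works with ferroportin, had ratios of 0.283 and 0.500. Of 4 carriers in plasma, 3 were lower in HFD and 2 in CCl4. Lcn2, which binds bacterial iron chelators, was at 3065 CPM in CON, 21.5 in HFD and 38.8 in CCl4, and Hp, the gene of the haemoglobin scavenger haptoglobin, at 5658, 1905 and 1746. Trf was the carrier with the highest ratio in both.

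The counts of haem, mitochondrial, regulatory and storage genes are given beside the shares of all genes past the threshold. These were 7.10% higher and 7.31% lower in HFD, and 9.32% and 7.74% in CCl4. Of 7 genes for haem breakdown and transport, Hmox1, which opens the haem ring and frees its iron, had ratios of 0.199 in HFD and 0.366 in CCl4, and Blvrb was 2.29 times higher in HFD. Of 9 genes for haem synthesis, 0 passed in HFD, and in CCl4 Alas1, the rate-limiting enzyme in liver, was 2.33 times higher and Alad had a ratio of 0.477. Of 6 mitochondrial iron genes only Slc25a37, an iron importer of mitochondria, passed, with a ratio of 0.442 in CCl4. Iron regulatory proteins control ferritin and Tfrc messages. The 3 genes listed for these proteins and their control did not pass in either comparison, with ratios from 0.766 to 1.14. Of the 5 storage genes only Pcbp2, an iron chaperone, passed, at 2.03 times in CCl4. In the rich clusters Pcbp2, Alas1 and Alad did not pass in CCl4, at 1.82, 1.94 and 0.557 times, and Ppox, an enzyme late in haem synthesis, passed in HFD at 2.96 times.

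**Figure D4:**
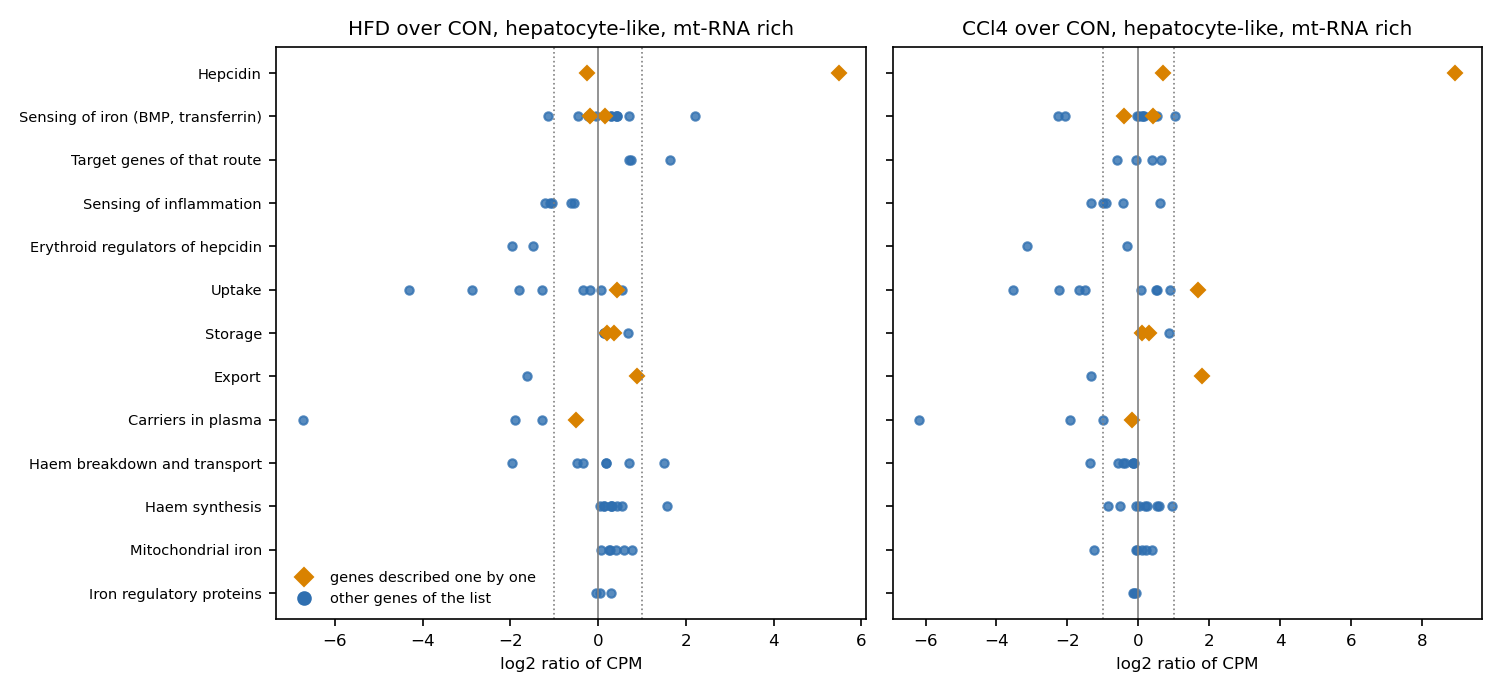
Log2 ratio of CPM in HFD (left) or CCl4 (right) to CON for the genes of 13 iron lists in hepatocyte-like clusters rich in mitochondrial RNA (mt-RNA), with dotted lines at 2-fold. Each point is a gene with at least 50 UMIs in the pair of libraries. Diamonds mark 9 of the 10 genes described individually, since Bmp6 had too few UMIs. Hamp2 stood far to the right at 44.9 and 489 times CON, and Lcn2, among the carriers, far to the left, at 0.00947 times in HFD.

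Position along the lobule was read from landmark genes, by comparing the most periportal with the most pericentral of 3 equal groups of hepatocyte-like cells in each library. Hamp was slightly pericentral in CON, with a periportal to pericentral ratio of 0.825 [0.816-0.834], level in HFD at 1.02 [1.00-1.04] and pericentral in CCl4 at 0.725 [0.715-0.734]. In the mitochondria-rich clusters, however, it was periportal in CON and HFD, at 1.24 [1.21-1.27] and 2.05 [1.95-2.16], and pericentral in CCl4, at 0.763 [0.748-0.779]. The direction thus turned in CON and was shared in CCl4, while the HFD ratio was near 1 in all hepatocyte-like cells and well above it in these clusters. As given above, Hamp in the rich clusters of HFD and CCl4 was not above T cell-like cells. The part of free RNA in these lobular ratios was not tested. Trf was periportal in all 3 libraries, at 1.54, 1.26 and 1.46, and so was Slc40a1, at 1.35, 1.38 and 1.34, although in the rich clusters of CCl4 it was at 1.07 [0.943-1.21]. Tfrc had ratios of 1.46, 1.19 and 2.00 and Fth1 of 0.828, 0.929 and 0.696, with Fth1 lower in the periportal group of the rich clusters too, at 0.645, 0.479 and 0.831. Tfr2 was pericentral in CON and HFD, at 0.767 and 0.748, and at 1.30 in CCl4, where the rich clusters gave 0.914 [0.826-1.01]. The periportal groups were deeper, with medians of 6210 against 3181 UMIs in CON, 2516 against 2265 in HFD and 2838 against 2069 in CCl4, and in CCl4 richer in mitochondrial RNA, with a median of 3.38% against 0.887%. Of the landmarks, Cyp2f2 had ratios of 9.30, 3.85 and 1.74, so the groups were separated least in CCl4 on the periportal side.

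Over 44 combinations of class and library with at least 100000 UMIs, the levels most like those of Hamp among 7902 genes, by Pearson correlation of log2(CPM + 5), were those of Bhmt (0.969), Fabp2 (0.960), Apoc3 (0.958), Agxt (0.956) and Mup3 (0.955). All are genes of hepatocytes or, for Fabp2, also of gut epithelium. Slc40a1 was most like Hpgd (0.741), St3gal5 (0.740), Tcn2 (0.726), Cd81 (0.707) and Itm2b (0.702). For Hamp2, added after its values were seen, the closest were Angptl8 (0.960), Etnppl (0.943) and G6pc (0.938). The combinations share libraries and free RNA, so these correlations are descriptions.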

How the data were processed

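The values are raw UMI counts for each gene in each barcode, which the authors deposited as sparse matrices of 10x 3' libraries, with Cell Ranger 7.2.0 given in the file headers. The submitters' processing notes name GRCm39 and Seurat, while the methods name another build, so no coordinates were taken from the counts. The lists and the 10 genes were chosen with earlier results of these data known.

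Of 36990 barcodes, 36947 passed the filters of 500 or more UMIs, 200 or more genes and a mitochondrial share of no more than 30%. The doublet caller (Scrublet in scanpy) marked 4 barcodes and so has not worked as a caller, and the 8% with the highest scores were left out as an alternative. Cells of all libraries were clustered together with scanpy 1.11.5 (2000 variable genes without the iron genes, 30 components, 15 neighbours, Leiden resolution 1) in Python 3.11.15. A cluster was named for the class with most markers raised at least 1.5-fold, and at least 3. There were 3 forms of this rule. The form used, against the median over the clusters of the same library, was set after iron gene levels per cluster had been seen, because the other forms left the mitochondria-poor control cluster unnamed. The lists hold 80 names for 79 genes, since Smad8 is an older name of Smad9, and the marker Ahsp was not among the features.

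Levels are CPM, summed UMIs per 1000000 UMIs of a class and library, with exact Poisson intervals. Ratios have exact conditional intervals and shares of cells Clopper-Pearson intervals (SciPy 1.17.1). A count of 0 allows up to 3. There was no test between conditions, with 1 library each. Named from the lists were the 2 highest and 2 lowest ratios of a list, and any other gene is said to be chosen later. Scripts were tested on simulated data.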

Additional observations from a re-analysis of the deposited data

How the results depend on the processing

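No paired analysis was possible because each condition had 1 library, and no library could be left out. Hamp2 and endothelial Bmp6 kept their direction and their side of the 2-fold threshold under every alternative run, as did hepatocyte Tfrc and Slc40a1 in CCl4. Hepatocyte Hamp did not. Its ratio to CON in HFD was 0.603 with abundant genes out of the total, 0.837 in mitochondria-rich and 0.453 in mitochondria-poor clusters, 0.608 without high doublet scores, 0.605 with libraries clustered apart, 0.472 with cells picked by marker UMIs, 0.303 with the T cell level taken off, 0.298 per cell and 1.59 under both other naming forms. In CCl4 the same settings other than the doublet scores, which left it in place, gave 0.941, 1.63, 0.772, 1.03, 0.733, 0.306, 0.478 and 2.18, with 0.918 at a 10% mitochondrial limit and 1.17 with iron genes among the clustering genes. These settings did not keep comparable cells. Picking by marker UMIs left 175 hepatocyte-like cells in CON, 1212 in HFD and 2189 in CCl4. With iron genes among the clustering genes the CCl4 class had 4069 cells instead of 7036. Hamp2 in HFD was 28.6 by marker UMIs, 26.5 with T cells taken off, 20.1 per cell, 79.5 under the other naming forms and 33.0 in mitochondria-poor clusters, and in CCl4 257, 153, 181, 617 and, in mitochondria-rich clusters, 489. Kupffer Slc40a1 was 0.154 in HFD at resolution 2 and 0.147 with libraries clustered apart, where the HFD class grew to 242 and 315 cells. With libraries clustered apart CCl4 had no Kupffer class. It was 0.179 in HFD and 0.147 in CCl4 per cell, and with iron genes among the clustering genes 0.909 and 1.01, where CON had 247 cells instead of 72. With a minimum of 10 UMIs, 1352 genes were 2-fold higher and 1415 lower in HFD and 1779 and 1498 in CCl4, and at a 1.5-fold threshold 1852, 1698, 2147 and 1770, beside 768, 790, 1017 and 844. With 5 lobular groups the Hamp ratio was 0.967 in CON, 1.17 in HFD and 0.697 in CCl4, and with 3 groups of the mitochondria-rich clusters alone 1.24, 2.05 and 0.763. The naming forms, the mitochondria-poor clusters and the shared barcodes were alternatives chosen after seeing the data, and the causes of the moves in Hamp were not tested. Kupffer values rest on 26 to 75 cells a library.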
